A study of Mus musculus with 20 samples.

Results

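The enhancers described here lie in Ptk2b, Pde4d, Cdk6 and Foxp1. Every peak in 12 deposited lists was taken that overlapped the body of one of these genes or the 20 kb on either side of it, which gave 1933 of 591292 peaks, with 306 at Ptk2b, 482 at Pde4d, 427 at Cdk6 and 718 at Foxp1. The 4 genes were chosen by the number of their enhancers with H3K27ac and H3K4me1 peaks in Tet2-/- cells and not in Ep300Δ/Δ Tet2-/- cells. The values of that contrast, and of others with either of these lists, are therefore given as a description, and nothing is supported with them. The lists are of 3 histone marks (H3K27ac, H3K4me1, H3K4me3). They come from Lin- cells, which are bone marrow depleted of cells carrying markers of mature blood lineages, from C57BL/6 mice of 4 genotypes. WT cells came from Ep300 fl/fl mice without Cre, and Ep300Δ/Δ cells from Mx1-Cre;Ep300 fl/fl mice. Tet2-/- cells came from Ep300 fl/fl;Tet2-/- mice, and cells lacking both genes, called double-deficient below, from Mx1-Cre;Ep300 fl/fl;Tet2-/- mice. All 4 genotypes received poly(I:C), an inducer of interferon, in 3 doses of 10 µg per g starting at 6 to 8 weeks of age, and experiments were done 2 weeks later unless the study states otherwise. Mx1-Cre responds to interferon and is not restricted to blood cells. Each genotype and mark has 1 library, so no value below has a replicate error, no difference was tested between replicates, and each comparison is between libraries.

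p300, the product of Ep300, is a histone acetyltransferase and transcriptional coactivator, and H3K27ac, one of the marks it lays down, is found at active promoters and enhancers. H3K4me1 marks enhancers whether or not they are active, and H3K4me3 marks promoters. TET2 oxidises 5-methylcytosine in DNA and is a frequent target of mutation in myeloid disease. Ptk2b encodes PYK2, a calcium-responsive cytosolic tyrosine kinase of the focal adhesion kinase family. Pde4d encodes a phosphodiesterase that degrades cyclic AMP, and Cdk6 the cyclin D partner kinase that drives cells through G1 and is active in hematopoietic progenitors. Foxp1 encodes a forkhead transcription factor that acts mostly as a repressor and is needed for B cell development.

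The H3K27ac lists held 29659 peaks in WT, 22727 in Ep300Δ/Δ, 24539 in Tet2-/- and 18327 in double-deficient cells. The H3K4me1 lists held 90738 to 107392 peaks and the H3K4me3 lists 25012 to 27807. Read depth is not known from the lists, and the part of depth in these totals was not tested. Peaks whose q-value was above the stated limit of 0.05 made up 7.17% of the Ep300Δ/Δ H3K27ac list and 0.780% to 0.900% of the other H3K27ac lists. Among the acetylated distal regions described below, such peaks were 2 of 87 in WT, 4 of 32 in Ep300Δ/Δ, 0 of 48 in Tet2-/- and 1 of 22 in double-deficient cells. Of 6 progenitor genes (Kit, Cd34, Gata2, Meis1, Flt3, Myb), 6 had an H3K27ac peak within 3000 bp of a start in WT and Ep300Δ/Δ cells and 5 in each Tet2-/- genotype, where Cd34 lacked one in Tet2-/- and Gata2 in double-deficient cells. Of the genes of mature lineages, Itgam had one in WT and Ep300Δ/Δ cells, and Cd3e, Ms4a1 and Ly6g had none in any list. Alb, Myod1 and Neurod1, which mark tissues other than blood, had none. The part of the mature-lineage cells in the results below was not tested, and fewer cells that carry a mark cannot be told apart from less of the mark per cell.

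Ptk2b (ENSMUSG00000059456.13) spans chr14:66153257-66281052 on the minus strand of mm10, over 127.8 kb. Pde4d (ENSMUSG00000021699.17) spans chr13:108449948-109953461 on the plus strand, over 1503.5 kb. Cdk6 (ENSMUSG00000040274.11) spans chr5:3341485-3531008 on the plus strand, over 189.52 kb, and Foxp1 (ENSMUSG00000030067.17) spans chr6:98925338-99522721 on the minus strand, over 597.38 kb. To follow each enhancer across genotypes, the 4 H3K27ac lists were merged wherever peaks shared at least 1 bp. The 4 windows then held 148 H3K27ac regions. Of these, 42 overlapped the 3000 bp on either side of an annotated transcript start and were called promoter regions, and the other 106 were called distal. All 106 distal regions lay inside the gene bodies, with 20 in Ptk2b, 21 in Pde4d, 31 in Cdk6 and 34 in Foxp1, and none lay in the flanks alone. A single one of them, region 23 of Ptk2b, touched an exon. Regions are numbered from the 5′ end of each gene, promoter regions included.

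**Figure D1:**
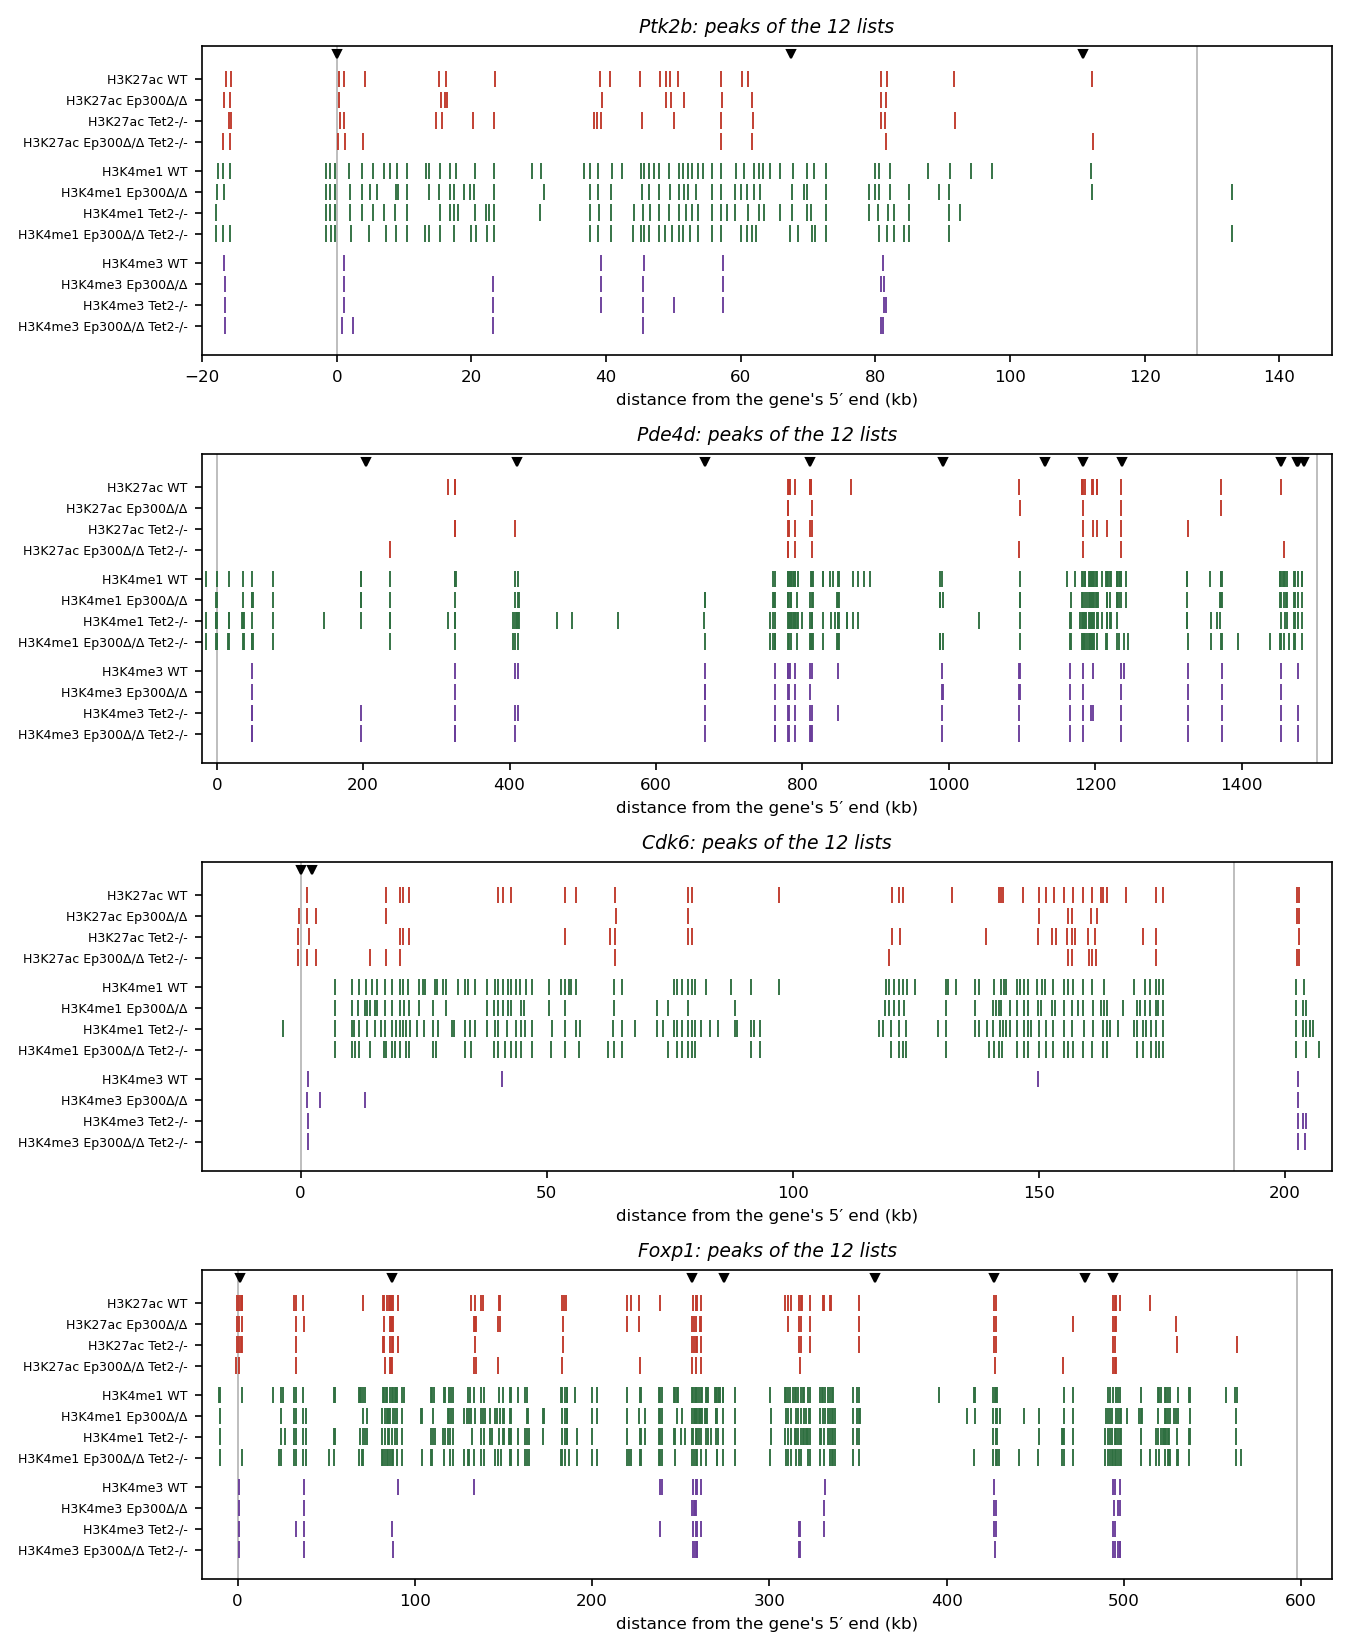
Midpoints of the peaks of the 12 lists along each gene, with the distance from the 5′ end of the gene in kb on the x axis and a row for each mark and genotype (H3K27ac red, H3K4me1 green, H3K4me3 purple). Triangles mark annotated protein-coding starts and grey lines the gene ends. H3K4me1 peaks are the most numerous in every genotype, and the H3K27ac rows thin out from 138 peaks in WT to 55 in double-deficient cells over the 4 genes.

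For each gene, 2 distal regions are shown by sequence, because they stand for the opposite outcomes followed below. The first was acetylated in WT and Tet2-/- cells and in neither Ep300-deleted genotype, and had the highest fold enrichment in the Tet2-/- list among such distal regions of its gene. The second was acetylated in all 4 genotypes, and had the highest fold enrichment in the double-deficient list among the distal regions of its gene acetylated in all 4. Each sequence is the plus strand of GRCm38 (mm10) over 201 bp centred on the highest summit of the region, 5′ to 3′. Capitals mark the RUNX letters TGTGGT, the GATA letters AGATAA and the MYB letters CAACTG on either strand. None of the 8 windows overlapped an exon. The regions acetylated in WT and Tet2-/- cells alone are at chr14:66235780-66235980 (Ptk2b region 11), chr13:109646762-109646962 (Pde4d region 20), chr5:3362036-3362236 (Cdk6 region 5) and chr6:99263269-99263469 (Foxp1 region 33).
Ptk2b region 11: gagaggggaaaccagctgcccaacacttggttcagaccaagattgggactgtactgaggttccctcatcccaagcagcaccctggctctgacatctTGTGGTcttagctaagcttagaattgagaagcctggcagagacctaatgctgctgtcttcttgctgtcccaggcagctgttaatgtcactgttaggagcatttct
Pde4d region 20: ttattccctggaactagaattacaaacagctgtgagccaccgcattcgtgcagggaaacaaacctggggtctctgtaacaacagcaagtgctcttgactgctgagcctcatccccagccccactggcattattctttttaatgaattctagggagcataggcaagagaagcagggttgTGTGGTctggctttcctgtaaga
Cdk6 region 5: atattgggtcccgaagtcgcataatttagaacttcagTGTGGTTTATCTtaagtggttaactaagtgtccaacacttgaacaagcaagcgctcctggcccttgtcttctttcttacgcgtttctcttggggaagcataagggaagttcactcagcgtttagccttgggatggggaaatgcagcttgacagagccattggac
Foxp1 region 33: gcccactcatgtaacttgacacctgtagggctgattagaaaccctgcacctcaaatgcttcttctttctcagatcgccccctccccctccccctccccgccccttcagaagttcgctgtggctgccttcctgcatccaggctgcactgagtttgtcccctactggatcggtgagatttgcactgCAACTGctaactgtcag

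The regions acetylated in all 4 genotypes are at chr14:66199471-66199671 (Ptk2b region 22), chr13:109230349-109230549 (Pde4d region 6), chr5:3405116-3405316 (Cdk6 region 13) and chr6:99489768-99489968 (Foxp1 region 6).
Ptk2b region 22: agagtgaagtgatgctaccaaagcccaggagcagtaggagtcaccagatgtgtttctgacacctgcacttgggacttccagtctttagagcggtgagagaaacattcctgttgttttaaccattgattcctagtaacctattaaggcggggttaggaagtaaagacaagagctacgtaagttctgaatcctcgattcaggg
Pde4d region 6: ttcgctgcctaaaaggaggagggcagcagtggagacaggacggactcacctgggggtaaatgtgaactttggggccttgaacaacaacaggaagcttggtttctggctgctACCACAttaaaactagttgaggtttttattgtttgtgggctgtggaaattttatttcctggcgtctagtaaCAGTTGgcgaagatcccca
Cdk6 region 13: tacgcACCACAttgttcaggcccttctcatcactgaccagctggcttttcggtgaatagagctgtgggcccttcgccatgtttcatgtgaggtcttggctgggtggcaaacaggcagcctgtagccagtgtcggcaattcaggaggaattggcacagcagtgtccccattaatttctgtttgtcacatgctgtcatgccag
Foxp1 region 6: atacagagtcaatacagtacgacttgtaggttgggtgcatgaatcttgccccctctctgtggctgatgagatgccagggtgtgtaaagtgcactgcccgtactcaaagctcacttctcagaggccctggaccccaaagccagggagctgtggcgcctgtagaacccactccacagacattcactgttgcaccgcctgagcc
The RUNX letters stood in 3 sequences of the first set and 2 of the second. In Cdk6 region 5 they began at base 38 and the GATA letters followed directly at base 44. Ptk2b region 22 and Foxp1 region 6, which kept their acetylation, held none of the 3 motifs.

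An enhancer was counted as active in a genotype when a distal region had an H3K27ac peak and an H3K4me1 peak of that genotype. The 4 windows held 80 active enhancers in WT, 32 in Ep300Δ/Δ, 48 in Tet2-/- and 20 in double-deficient cells. Over the genome the same count was 9117, 4343, 6065 and 3460. Ptk2b had 16, 9, 12 and 4 in this order of genotypes, and Pde4d 11, 3, 10 and 3. Cdk6 had 26, 4, 14 and 6, and Foxp1 27, 16, 12 and 7. All 4 genes thus had their highest number in WT, and none had more in the Ep300-deleted genotype than in its partner with p300. Cdk6 was the most densely covered in WT, with 11.3 active enhancers per 100 kb of window, followed by Ptk2b with 9.54, Foxp1 with 4.24 and Pde4d with 0.713. In double-deficient cells the densities were 2.61, 2.38, 1.10 and 0.194. Some active enhancers also had an H3K4me3 peak. They were 17 of 80 in WT, 7 of 32 in Ep300Δ/Δ, 19 of 48 in Tet2-/- and 3 of 20 in double-deficient cells. Over the genome they were 2448 of 9117, 1524 of 4343, 2309 of 6065 and 1686 of 3460. At Pde4d they were 8 of 10 in Tet2-/- cells.

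**Figure D2:**
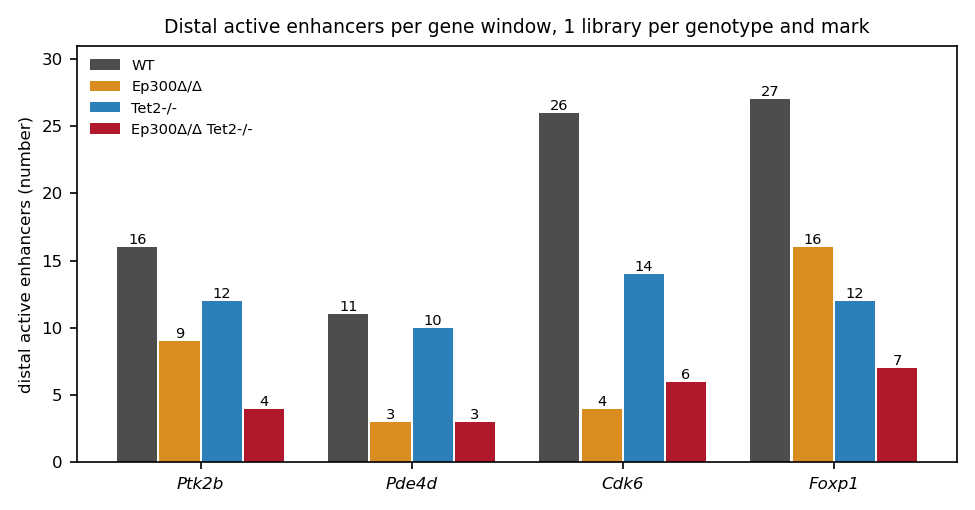
Number of distal active enhancers in each gene window (y axis), with a bar for each genotype and 1 library per genotype and mark. Cdk6 has 26 in WT and 4 in Ep300Δ/Δ cells, whereas Foxp1 has 27 and 16.

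Ptk2b carried its distal regions close together, with a median gap of 2150 bp. A run of 13 regions filled 24.0 kb of introns between 38.2 and 61.2 kb from the 5′ end, and held 10 active enhancers in WT, 6 in Ep300Δ/Δ, 6 in Tet2-/- and 2 in double-deficient cells. Region 18, at 57.1 kb, was the strongest member of the run except in double-deficient cells, where region 20 ranked higher. Region 18 had an H3K27ac fold enrichment at the 91.4th percentile of the WT list, the 75.9th of the Ep300Δ/Δ list, the 92.2nd of the Tet2-/- list and the 29.0th of the double-deficient list. Its rank was thus high in all genotypes except the double-deficient. Fold enrichment is compared here only as a rank within a list, since the lists were not scaled to each other, and a region with several peaks takes its highest.

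Region 22 of Ptk2b, the kept region printed above, stood at the 90.2nd, 77.1st, 57.7th and 58.3rd percentile in WT, Ep300Δ/Δ, Tet2-/- and double-deficient cells, and region 20 at the 53.2nd, 40.9th, 32.6th and 50.5th. With region 18 these were the 3 Ptk2b regions acetylated in every genotype. Region 11, the printed region without acetylation in either Ep300-deleted genotype, was of modest rank where it was present, at the 26.6th percentile in WT and the 40.3rd in Tet2-/- cells. Regions 5, 9 and 21 were acetylated in all genotypes but the double-deficient. Region 5 stood at the 61.4th, 70.0th and 69.0th percentile in WT, Ep300Δ/Δ and Tet2-/- cells, so it was in the upper part of 3 lists and had no peak in the last. All 20 Ptk2b regions overlapped an H3K4me1 peak in all 4 genotypes, whereas 67.6% of the 14280 distal regions of the genome did. The choice of genes used H3K4me1 peaks too, so this contrast is a description.

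Cdk6 carried 31 distal regions, at a median gap of 1904.5 bp. Only region 13, at 63.9 kb and 1516 bp wide, was acetylated in all 4 genotypes, at the 70.9th percentile in WT, the 5.70th in Ep300Δ/Δ, the 72.2nd in Tet2-/- and the 32.3rd in double-deficient cells. Its peak in Ep300Δ/Δ cells was of low rank and had a −log10 q of 0.76, short of the q-value limit of 0.05 that the study states. Without peaks over this limit, no distal region of Cdk6 would be acetylated in all 4 genotypes. Region 5, at 20.8 kb, stood at the 47.0th percentile in WT and the 65.9th in Tet2-/- cells and had no H3K27ac peak in either Ep300-deleted genotype. It also lacked an H3K4me1 peak in double-deficient cells. A run of 5 regions 142.8 to 153.1 kb from the 5′ end held 5 active enhancers in WT, 1 in Ep300Δ/Δ, 2 in Tet2-/- and 0 in double-deficient cells. The next run, of 7 regions at 162.6 to 175.1 kb, held 5, 0, 2 and 1. At 40.1 to 42.8 kb a cluster of 3 was active in WT and in no other genotype. The run nearest the start, at 14.0 to 22.0 kb, went another way, with 4, 1, 3 and 3 active, and its region 4 ranked at the 3.79th percentile in WT, the 7.78th in Tet2-/- and the 50th in double-deficient cells.

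Between the distal runs of Cdk6 lay acetylated regions that the 3000 bp rule placed among the promoters. Region 32, at 160.9 kb, lay 935 bp from the start of Gm42435, a noncoding antisense gene, and stood at the 95.7th percentile in WT, the 86.6th in Ep300Δ/Δ, the 88.4th in Tet2-/- and the 77.0th in double-deficient cells. Region 30, at 156.4 kb, lay 499 bp from the same start, at the 86.7th, 69.1st, 83.9th and 51.4th percentile. Both had H3K4me1 and neither had H3K4me3 in any genotype. In WT they ranked above region 1 at the start of Cdk6 itself, which stood at the 83.5th percentile in WT and the 72.7th, 73.1st and 63.6th in the other genotypes. Where starts of protein-coding transcripts alone defined promoters, an alternative chosen after seeing the data, Cdk6 had 30, 6, 17 and 8 active enhancers. Apart from the regions printed above, regions named singly were picked after their values were seen, for their rank or position.

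Pde4d, the longest of the genes, had its 21 distal regions far apart, at a median gap of 11158 bp. Region 6, 2365 bp wide and 780.8 kb from the 5′ end, was the only one acetylated in all 4 genotypes, at the 90.8th percentile in WT, the 74.1st in Ep300Δ/Δ, the 94.8th in Tet2-/- and the 67.0th in double-deficient cells. It was also the highest-ranking distal region of Pde4d in WT and Tet2-/- cells. Region 20, at 1196.9 kb, stood at the 75th percentile in WT and the 58.2nd in Tet2-/- cells and was not acetylated in the Ep300-deleted genotypes. It belongs to a run of 4 regions that were all active in WT, of which 2 were active in Tet2-/- cells and 0 in Ep300Δ/Δ and double-deficient cells. Region 14 lacked H3K4me1 in every genotype and had H3K4me3 in all of them. It stood at the 74.4th percentile in WT and the 74.6th in double-deficient cells, with no H3K27ac peak in the other lists. Of the 21 regions, 12 overlapped H3K4me3 in at least 1 genotype (57.1%, against 30.9% of distal regions of the genome), 7 of them in all 4. H3K4me1 was present in all 4 genotypes at 12 regions.

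Foxp1 had 34 distal regions at a median gap of 4340 bp. Regions 6, 24, 35 and 40 were acetylated in all 4 genotypes. Region 40, at 317.9 kb, stood at the 81.9th percentile in WT, the 68.4th in Ep300Δ/Δ, the 74.7th in Tet2-/- and the 54.6th in double-deficient cells, and region 6, at 33.0 kb, at the 72.3rd, 53.3rd, 76.0th and 69.4th. Both thus kept a rank in the upper part of every list. Region 33 stood at the 54.3rd percentile in WT and the 39.9th in Tet2-/- cells with no acetylation in the Ep300-deleted genotypes, and it lay just outside the promoter limit, 3008 bp from a Foxp1 start. Of the 34 regions, 14 were acetylated in WT alone (41.2%, against 32.1% of distal regions of the genome), at a median WT percentile of 13.5, against 23.1 for the genome. At Cdk6, 14 of 31 regions were acetylated in WT alone (45.2%), at a median percentile of 40.5. A run of 4 Foxp1 regions at 330.3 to 334.7 kb was active in WT and in no other genotype. A run of 6 at 308.8 to 322.9 kb held 6 active enhancers in WT, 4 in Ep300Δ/Δ, 3 in Tet2-/- and 1 in double-deficient cells. Region 29 was higher in rank without both proteins, at the 9.14th percentile in WT, the 17.9th in Ep300Δ/Δ and the 63.9th in double-deficient cells, with no peak in Tet2-/- cells.

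**Figure D3:**
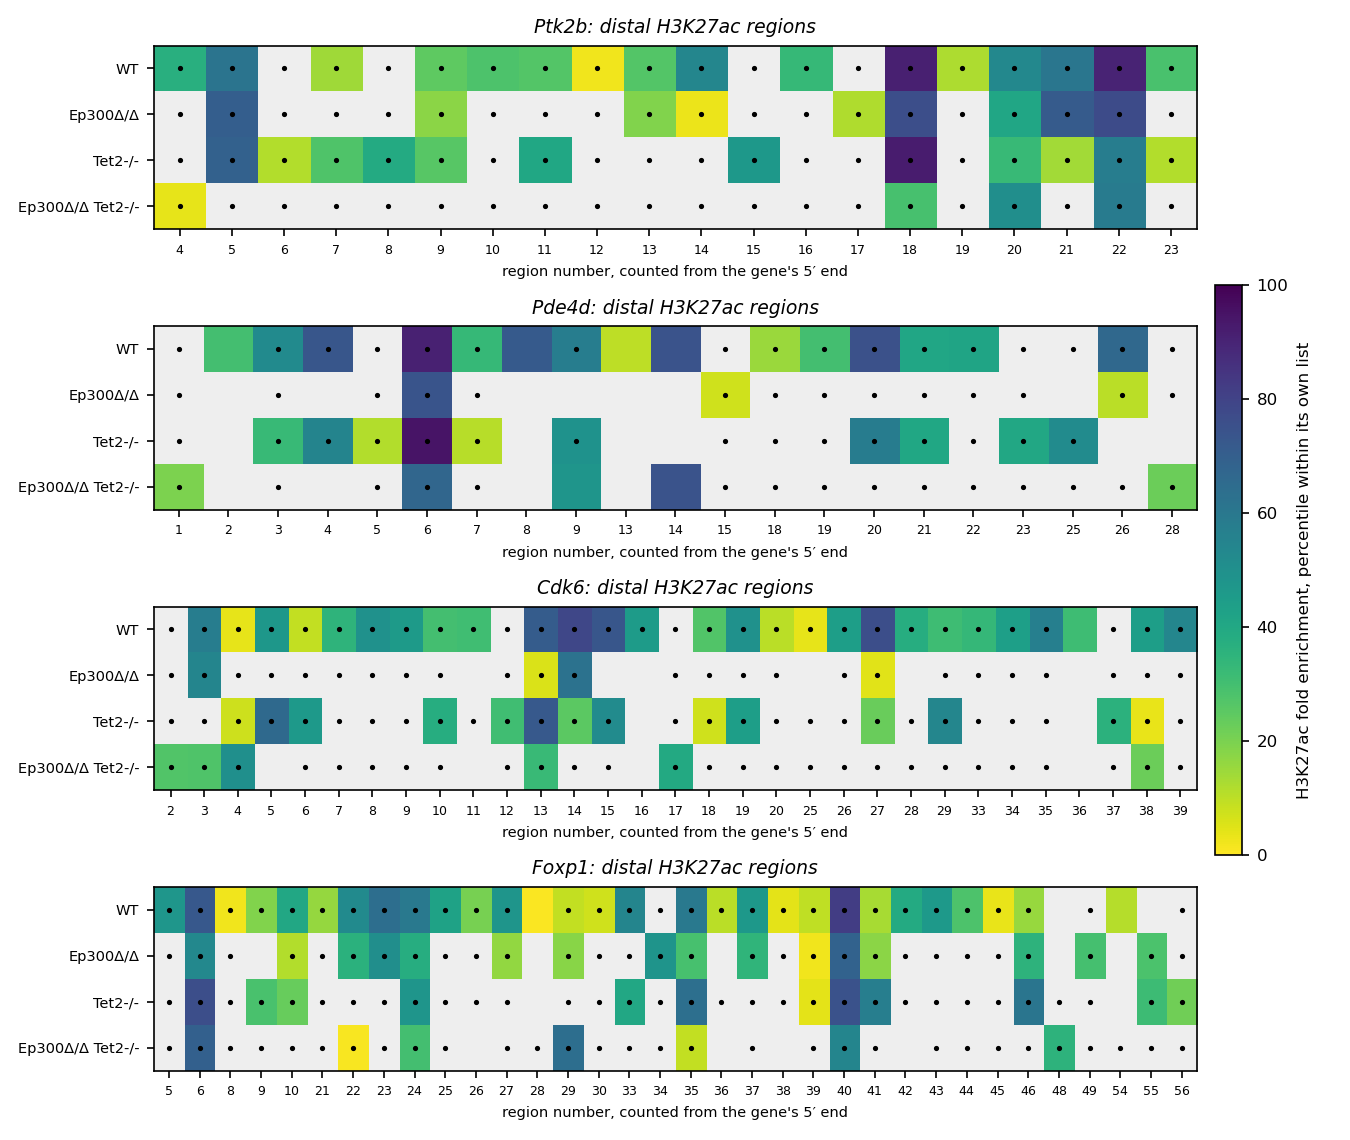
Every distal H3K27ac region of the 4 genes (columns, numbered from the 5′ end) in the 4 genotypes (rows). Colour is the percentile of H3K27ac fold enrichment within its own list, grey means no H3K27ac peak, and a dot means an H3K4me1 peak. Of 106 regions, 9 are coloured in all 4 rows and 56 in a single row, while dots run across grey cells in most columns.

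Of the 106 distal regions, 38 were acetylated in WT alone (35.8%, against 32.1% of distal regions of the genome) and 17 in WT and Tet2-/- cells alone (16.0% against 9.17%). Acetylation in all 4 genotypes was seen at 9 regions (8.49% against 14.4%) and acetylation in Tet2-/- cells alone at 9 (8.49% against 14.1%). Since the genes were chosen with the Tet2-/- and double-deficient lists, these shares are a description. The regions present in all 4 genotypes were wide, at a median of 1109 bp, and ranked at a median percentile of 72.3 in WT. Those in WT alone were narrow, at a median of 350.5 bp, and had a median percentile of 30.2. The genome gave 955 bp and the 66.6th percentile for the first kind and 324 bp and the 23.1st for the second.

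Deletion of Ep300 on the WT background was the comparison that the choice of genes did not use. Of the 80 enhancers active in WT, 53 were not active in Ep300Δ/Δ cells (66.3%, exact Clopper-Pearson 95% interval 54.8% to 76.5%), against 63.1% of the 9117 active enhancers of the genome. The share of the 4 genes together was near the background and is not a result about them. Intervals cover counting error only, and enhancers of the same gene are not independent of each other. Cdk6 lost 22 of 26 (84.6%, 65.1% to 95.6%), and its interval lay above the genome's share. Pde4d lost 9 of 11 (81.8%, 48.2% to 97.7%), Ptk2b 8 of 16 (50%, 24.7% to 75.4%) and Foxp1 14 of 27 (51.9%, 32.0% to 71.3%), and these 3 intervals include the genome's share. Across 11 other settings Cdk6 lost 71.4% to 89.5% and Pde4d 75% to 88.9%, both above the genome in all 11. The interval of Cdk6 lay above the genome's share in 6 of them and included it in the other 5, such as with −log10 q of at least 5 (66.9% to 98.7%, against 74.2%) and with peaks within 500 bp counted as shared (50.1% to 93.2%, against 58.6%). Foxp1 lost 44.4% to 75%, above it in 1, and Ptk2b 28.6% to 69.2%, above it in 0. Of the 32 enhancers active in Ep300Δ/Δ cells, 5 were not active in WT (15.6%, against 22.5% for the genome). When all H3K27ac lists were cut to the length of the shortest, Cdk6 lost 12 of 14 (57.2% to 98.2%) and the 4 genes together 62.5%, against 50.9% for the genome.

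On the Tet2-/- background, the contrast by which the genes were chosen, 37 of 48 active enhancers were lost (77.1%, 62.7% to 88%), against 60.6% of 6065 for the genome. The numbers were 9 of 12 at Ptk2b, 9 of 10 at Pde4d, 11 of 14 at Cdk6 and 8 of 12 at Foxp1, and 9 of the 20 enhancers active in double-deficient cells were gained (45.0%, against 30.9%). All of the lost enhancers but region 9 of Pde4d had no H3K27ac peak in double-deficient cells, and that region had lost its H3K4me1 peak instead. Counted by nearest transcript start, 9 enhancers were lost at Ptk2b, 9 at Pde4d, 8 at Cdk6 and 8 at Foxp1. By this count Gm17088, with 8, tied with Cdk6 and Foxp1, and Gse1, Asap1, Gm15599, Lrrc1, Pgs1 and Tns3 followed with 6 each. By the gene windows used here the order was another, with Gm20388 (31) and Etv6 (18) first, Cdk6 in a tie of 5 genes with 11, Pde4d and Ptk2b 9th with 9, and Foxp1 12th with 8.

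Between WT and Tet2-/- cells, 42 of the 80 enhancers were lost (52.5%, 41.0% to 63.8%), against 55.0% for the genome, and 10 of the 48 active in Tet2-/- cells were gained (20.8%, against 32.3%). Foxp1 lost 17 of 27 (63.0%, 42.4% to 80.6%), Cdk6 14 of 26 (53.9%, 33.4% to 73.4%), Ptk2b 7 of 16 (43.8%, 19.8% to 70.1%) and Pde4d 4 of 11 (36.4%, 10.9% to 69.2%). Every interval includes the genome's share. The Tet2-/- list entered the choice of the genes, so these shares are a description and give no verdict on a gene. Between Ep300Δ/Δ and double-deficient cells, 20 of 32 were lost (62.5%, 43.7% to 78.9%), against 50.4% for the genome. The genes were chosen by absence from the double-deficient list, so this share too is a description. The comparisons share libraries in pairs, and the WT library enters those with Ep300Δ/Δ and with Tet2-/- cells, so their values stand side by side only. For Foxp1 the loss was 51.9% after deletion of Ep300 and 63.0% between WT and Tet2-/- cells, and for Cdk6 it was 84.6% and 53.9%.

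**Figure D4:**
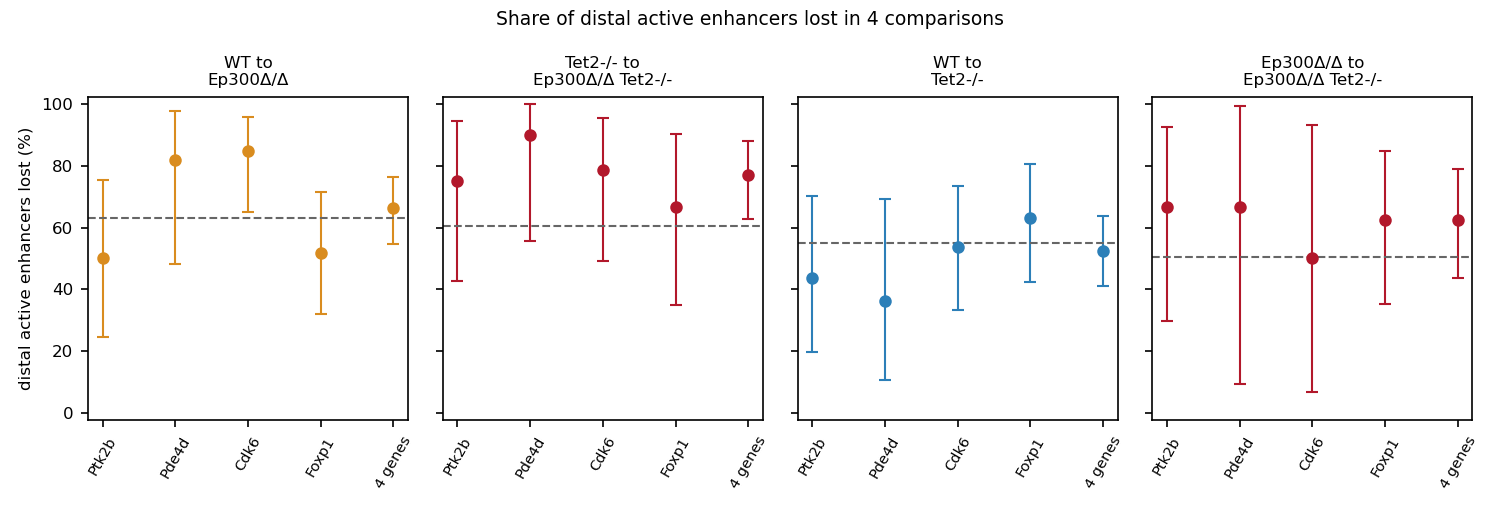
Percent of distal active enhancers lost (y axis) per gene and over the 4 genes, in 4 comparisons between genotypes. Points are shares, bars are exact 95% intervals for counting error, and the dashed line is the share over all distal active enhancers of the genome. In the comparison of WT with Ep300Δ/Δ cells, the interval of Cdk6 (65.1% to 95.6%) is the only one of a single gene above the line at 63.1%.

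Loss differed with rank before deletion. The active enhancers of WT over the whole genome were divided by H3K27ac fold enrichment into 4 rank classes of equal size. In the highest class, 4 of 19 enhancers of the 4 genes were lost in Ep300Δ/Δ cells (21.1%, 6.05% to 45.6%), against 26.7% for the genome. The lower classes, from the next highest to the lowest, lost 20 of 26 (76.9%), 15 of 17 (88.2%) and 14 of 18 (77.8%), against 61.7%, 78.9% and 85.1%. At Cdk6 the highest class lost 1 of 5, and each lower class lost every enhancer, 11 of 11, 6 of 6 and 4 of 4. At Ptk2b and Foxp1 the highest class lost 0 of 4 and 0 of 5, and at Pde4d 3 of 5. The lowest class of Foxp1 lost 6 of 10, so weak enhancers there were partly retained. On the Tet2-/- background, as a description, the classes of the 4 genes, from highest to lowest, lost 6 of 13, 14 of 15, 10 of 11 and 7 of 9, against 25.3%, 60.4%, 74.6% and 82.0% for the genome.

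**Figure D5:**
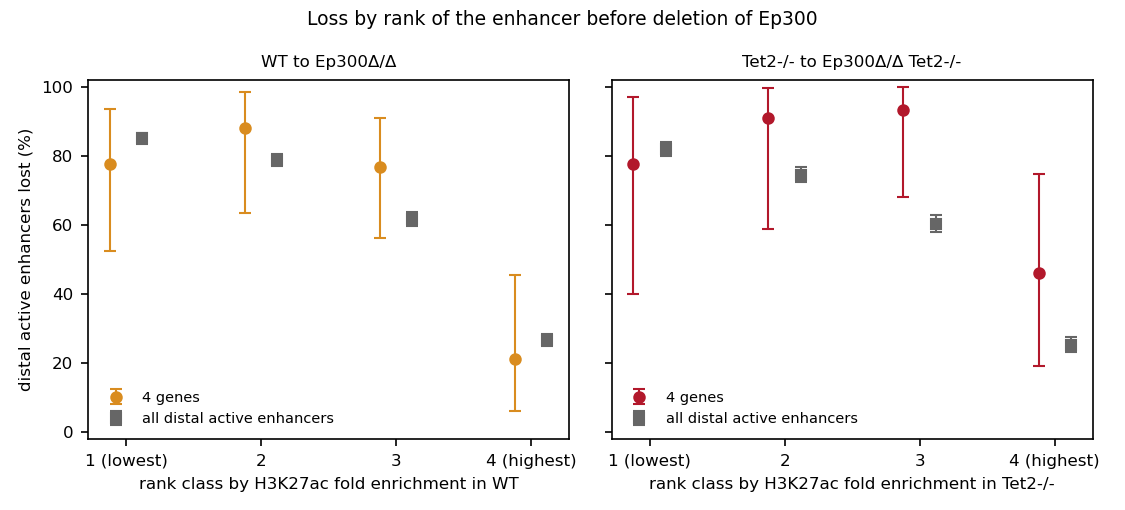
Percent of distal active enhancers lost after deletion of Ep300 (y axis) by rank class of H3K27ac fold enrichment before it (x axis, class 4 highest), on the WT and the Tet2-/- background, for the 4 genes and for the genome. Bars are exact 95% intervals. On the WT background the highest class lies at 21.1% for the 4 genes and 26.7% for the genome, and the lower classes of the 4 genes lie between 76.9% and 88.2%.

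H3K4me1 followed another course than H3K27ac at these genes. The windows held 379 H3K4me1 peaks in WT, 325 in Ep300Δ/Δ, 373 in Tet2-/- and 313 in double-deficient cells, while H3K27ac peaks numbered 138, 69, 84 and 55. After merging, 115 of 328 H3K4me1 regions of WT were lost in Ep300Δ/Δ cells (35.1%, 29.9% to 40.5%), against 35.6% for the genome, so the 4 genes did not stand apart. On the Tet2-/- background 123 of 350 were lost (35.1%, 30.1% to 40.4%), against 30.4%, with 8 of 41 at Ptk2b (19.5%) and 44 of 93 at Pde4d (47.3%). Most distal regions without acetylation in a genotype had the mark in it. An H3K4me1 peak was present at 17 of 19 such regions in WT (89.5%), 56 of 74 in Ep300Δ/Δ (75.7%), 48 of 58 in Tet2-/- (82.8%) and 72 of 84 in double-deficient cells (85.7%), against 65.8%, 71.5%, 78.1% and 76.7% of such regions of the genome. Over the 4 genes together, their median H3K4me1 rank was lower than that of acetylated regions in each genotype. It was at the 78.3rd against the 93.6th percentile in Ep300Δ/Δ and the 80.6th against the 92.0th in double-deficient cells. At Cdk6 in Tet2-/- cells the order was reversed, with the 89.5th for regions without acetylation against the 85.9th.

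Of the 37 enhancers lost between Tet2-/- and double-deficient cells, 34 had an H3K4me1 peak in double-deficient cells (91.9%, 78.1% to 98.3%), a share close to the genome's 90.3%. In WT cells 27 of the 37 were acetylated (73.0%, 55.9% to 86.2%), against 57.7% for the genome, which lies within the interval. With lists cut to the length of the shortest, the share was 47.6%, against 46.4% for the genome. In the lists as deposited 18 of these 27 were not acetylated in Ep300Δ/Δ cells (66.7%, 46.0% to 83.5%), against 58.0%, which lies within the interval. The 11 enhancers that stayed active all had H3K4me1 in every genotype and were all acetylated in WT, and 9 were acetylated in Ep300Δ/Δ cells. Of the retained enhancers of the genome, 93.9%, 89.4% and 79.4% had these features, so the 11 were near the background. In the Tet2-/- list the lost enhancers had a median percentile of 37.7 and a median width of 454 bp, and the retained ones 63.4 and 1108 bp, against 25.4 and 441 bp for the lost and 52.5 and 870.5 bp for the retained of the genome. On the WT background, 44 of the 53 lost enhancers had H3K4me1 in Ep300Δ/Δ cells (83.0%), near the genome's 83.6%. The median WT percentile was 33.2 for the lost and 59.4 for the 27 retained, against 26.6 and 56.7 for the genome.

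At promoter regions, which include the starts of other genes in the windows, 17 of 40 H3K27ac regions of WT were lost in Ep300Δ/Δ cells (42.5%, 27% to 59.1%), against 26.1% for the genome. They were 2 of 4 at Ptk2b, 4 of 7 at Pde4d, 4 of 8 at Cdk6 and 7 of 21 at Foxp1. The 4 at Cdk6 were regions 21, 23, 24 and 31, near starts of the noncoding genes Gm17590 and Gm42435. Region 1, at the start of Cdk6 itself, was acetylated in all 4 genotypes. On the Tet2-/- background, 4 of 24 were lost (16.7%, 4.74% to 37.4%), against 25.6%. Of the 24 acetylated in double-deficient cells 4 were gained, against 1234 of 12709 over the genome. Over all their H3K4me3 regions, distal ones included, the windows lost 16 of 49 in Ep300Δ/Δ cells (32.7%, 20% to 47.5%), against 14.7% for the genome, with 8 of 25 at Pde4d, 6 of 14 at Foxp1, 2 of 4 at Cdk6 and 0 of 6 at Ptk2b. These sets are unlike, since 33 of the 63 H3K4me3 regions of the windows were distal and 8465 of the 30095 of the genome. Taken apart, 9 of 24 distal H3K4me3 regions of WT were lost (37.5%, 18.8% to 59.4%), against 30.3%, and 7 of 25 promoter ones (28%, 12.1% to 49.4%), against 9.75%. On the Tet2-/- background 11 of 49 were lost (22.5%, 11.8% to 36.6%), against 13.0%, with 10 of 25 distal regions lost (40%, against 25.7%) and 1 of 24 promoter regions (4.17%, against 8.68%).

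Starts of protein-coding transcripts were grouped when within 1000 bp of each other. A mark was counted at a start with a window of 500 bp, narrower than the 3000 bp used for promoter regions. H3K27ac lay at 1 of 3 start groups of Ptk2b, 2 of 2 of Cdk6 and 5 of 8 of Foxp1 in every genotype. H3K4me1 was at the same 2 groups of Ptk2b in every genotype, at none of Cdk6, and varied more at the others, with 1 group of Pde4d and 4 of Foxp1 marked in all 4 genotypes and 6 and 1 in some of them. For H3K4me3, 1 group of Ptk2b, 2 of Cdk6, 6 of Pde4d and 4 of Foxp1 were marked in all 4, and 1 group each of Pde4d and Foxp1 in some. For H3K27ac, Ptk2b's 5′ start stood at the 86.4th percentile in WT, the 94.4th in Ep300Δ/Δ, the 74.5th in Tet2-/- and the 79.0th in double-deficient cells. Region 1 at the 5′ end of Foxp1 stood at the 96.0th, 99.1st, 94.9th and 99.9th, the highest H3K27ac ranks of any region described here. Pde4d, which has 12 start groups, differed, with H3K27ac at 4 groups in WT, 2 in Ep300Δ/Δ, 3 in Tet2-/- and 2 in double-deficient cells. Its start 810.7 kb from the 5′ end was acetylated at the 41.9th percentile in WT and the 13.1st in Tet2-/- cells. In the window of this start, neither Ep300-deleted genotype had an H3K27ac peak. H3K4me3 was present at this start in all 4, at the 59.1st, 57.8th, 73.7th and 51.8th percentile. Region 12, 1365 bp from the same start, was acetylated in all 4 genotypes, at the 55.2nd, 59.2nd, 6.84th and 36.3rd percentile. The start at 1236.2 kb was acetylated in all 4, at the 83.9th, 92.6th, 90.2nd and 71.6th percentile.

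Sequence was compared over the 201 bp at the highest summit of each region active in any genotype. Motifs were searched on both strands as TGTGGT for RUNX, GAGGAAG for ETS, AGATAA for GATA factors, TTGCAA for C/EBP, CAACTG for MYB and TGANTCA for AP-1, none of which contains another. Among the 99 regions of the 4 genes, 19.2% held the RUNX letters, against 17.0% of 12321 such regions of the genome. The ETS letters were in 10.1% against 10.4%, GATA in 8.08% against 7.29%, MYB in 9.09% against 11.5%, and AP-1 in 5.05% against 6.30%. C/EBP letters stood in 8.08% (3.55% to 15.3%) against 3.57%, which lies within the interval. Of the 37 enhancers lost on the Tet2-/- background, 10 held RUNX letters (27%, against 17.2% of lost enhancers of the genome) and 6 GATA letters (16.2% against 7.16%), while 3 held MYB letters (8.11% against 12%). The intervals, 13.8% to 44.1%, 6.19% to 32.0% and 1.70% to 21.9%, include the shares of the genome. Of the 11 retained, 4 held RUNX and 0 GATA letters, where 16.1% and 6.52% of retained enhancers of the genome did. A match is a description of letters and not a bound site.

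The closest relatives of the 4 genes carried few distal active enhancers in these cells. The 4 genes were chosen for many lost enhancers, so lower counts at their relatives are a description. Windows differed too, from 44.4 kb at Cdk4 to 580.6 kb at Foxp2 among the relatives. Those of the 4 genes ran from 167.8 kb at Ptk2b to 1543.5 kb at Pde4d. Ptk2, which encodes focal adhesion kinase, had 0 in every genotype, as had Cdk4, Pde4c, Foxp2 and Foxp3. Pde4b, another cyclic AMP phosphodiesterase, had 5 in WT, 4 in Ep300Δ/Δ, 6 in Tet2-/- and 5 in double-deficient cells, where Pde4d had 11, 3, 10 and 3. Pde4a had 3, 1, 2 and 1, and Foxp4 had 1, 1, 3 and 0. The protein-coding genes with the most similar counts over the 4 genotypes were found by Euclidean distance. For Ptk2b the nearest was Runx1, a hematopoietic transcription factor, with 17, 11, 10 and 4 at a distance of 3, followed by Fam107b and Fndc3b, both at 3.46. Ptprj was nearest to Pde4d, with 10, 4, 10 and 4 at 1.73, then Dym and Gna12, where another gene tied with Gna12 at 2.65. Ubac2 was nearest to both Cdk6 (6.78) and Foxp1 (9.49), with 22, 9, 16 and 7, followed by Cmip and Zmiz1 for Cdk6 and by Gse1 and Erg for Foxp1.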

How the data were processed

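ChIP-seq for H3K27ac, H3K4me1 and H3K4me3 was done on 25000000 Lin- bone marrow cells (purity over 80%) of 4 genotypes, with 5 µg of chromatin, 1 µg of antibody and 10 ng of Drosophila spike-in chromatin. Spike-in scaling of the lists is not described in the sources used here. The submitters' processing notes name cutadapt 1.15, BWA 0.7.13, Picard and MACS2 2.1.1.20160309, and the genome build mm10. According to the study's methods, reads with a mapping quality above 30 were kept, blacklisted sites were removed, and peaks were called against total H3 and kept where they overlapped in pseudo-replicates. The lists deposited by the authors give each peak a fold enrichment over H3 (a ratio), a −log10 p-value, a −log10 q-value and a display score, which was not used. The labels call the reads single-end and the methods paired-end, so fragment handling is uncertain. The 8 samples of H3 and H3K27me3 were not used here.

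The 4 genes and all lists were chosen with earlier results of these data known. Some mature-lineage markers are not reported here. Lists were merged at an overlap of at least 1 bp. Promoters were the 3000 bp on either side of each GENCODE M21 transcript start, and distal regions with H3K27ac and H3K4me1 peaks of a genotype were active in it. Shares carry exact Clopper-Pearson 95% intervals, and percentiles are ranks within a list. The depth behind each list is unknown, which limits what a missing peak shows. With 1 library per genotype and mark there was no test between groups. The regions shown by sequence and the most similar genes follow the rules stated with them in the report. The counting was tested on simulated peaks, where 30 of 30 regions set as lost were recovered among 106. Alternatives varied the peak cutoff, list length, overlap, promoter width, gene window and merging. Peaks were handled with bedtools 2.31.1, pysam 0.24.0 and pandas 2.3.3 under Python 3.11.15, intervals with scipy 1.17.1 and numpy 2.4.6, and plots with matplotlib 3.10.9.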

Additional observations from a re-analysis of the deposited data

Results flagged for a closer look

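Among 20 counts, which were the peaks of each mark and the distal active enhancers at each gene and at the 4 genes together, 2 moved in opposite directions when Ep300 was deleted on the WT and on the Tet2-/- background, both at Ptk2b. H3K4me1 peaks there went from 60 in WT to 52 in Ep300Δ/Δ cells, a change of -8, and from 50 in Tet2-/- to 51 in double-deficient cells, a change of 1, so the changes differed by 9. H3K4me3 peaks at Ptk2b went from 6 to 8 on the WT background, a change of 2, and from 9 to 7 on the Tet2-/- background, a change of -2, so the changes differed by -4. Each count comes from 1 library, and the difference between the backgrounds was not tested. Counted as merged regions, H3K4me1 at Ptk2b went from 50 to 41 on the WT and from 41 to 40 on the Tet2-/- background, so it was lower on both.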

How the results depend on the processing

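Of 95 recomputed values for the 4 genes together, 84 stayed within the interval or within 1.5 times the reported count and 11 moved. With H3K27ac lists cut to the length of the shortest by −log10 q, active enhancers numbered 40 in WT, 19 in Ep300Δ/Δ and 30 in Tet2-/- cells, and 47.6% of the enhancers lost on the Tet2-/- background were acetylated in WT. With the upper part of each list by fold (its median and above), they numbered 26, 10, 16 and, in double-deficient cells, 6. With −log10 q of at least 5, they numbered 12 in Ep300Δ/Δ and 12 in double-deficient cells, and the loss between WT and Ep300Δ/Δ cells was 80.7%. Fewer peaks enter each of these counts by construction. The share lost on the Tet2-/- background, by which the genes were chosen, ranged from 67.6% to 81.0% over 11 alternatives, and because of that choice its place relative to the genome's share is no sign of stability. The loss after deletion of Ep300 in WT ranged from 59.3% to 80.7%, above the genome in 11 of 12 settings. The loss between WT and Tet2-/- cells ranged from 44.4% to 57.7%, above the genome in 2 of 12. The Tet2-/- list entered the choice of the genes, so the loss between WT and Tet2-/- cells is a description. Of 160 counts for single genes, 36 moved. The 2 settings chosen after seeing the data moved none of the 4 totals, which were 88, 36, 52 and 24 with promoters of protein-coding transcripts alone and 79, 28, 48 and 19 with H3K27ac peaks of a q-value of at most 0.05. Single libraries of unknown depth limit every share, and a region without a peak may hold signal under the caller's limit. No paired analysis was possible because each genotype and mark has 1 library and all labels carry the same replicate number.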
